A study of Rattus norvegicus with 12 samples.

Results

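The genes described here are those of antigen presentation by the major histocompatibility complex (MHC), which is called RT1 in the rat. They were taken as each gene of the deposited count table whose symbol starts with RT1-, together with B2m, Tap1, Tap2, Tapbp, Psmb8, Psmb9, Psmb10, Cd74, Ciita and Nlrc5, and each was read from its transcript with the highest mean count. This gave 46 genes of the 25888 symbols in the table. They comprise 27 class I heavy chain genes (every RT1- gene that is not a class II gene), 8 genes of class I assembly and 11 class II genes. Of the 46 genes, 40 passed the filter on low counts and were tested (22 heavy chains, 8 assembly genes and 10 class II genes). The other 6 genes had 212 counts or fewer over all 12 libraries.

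Transcript counts came from isolated pancreatic islets of Sprague Dawley rats, an outbred stock, freed with collagenase and a density gradient. The IUGR animals had been growth restricted in the womb by tying off both uterine arteries of the dam at embryonic day 18, and control litters were culled to 8 pups. There were 4 groups of 3 libraries: IUGR at 10 weeks of age, control at 10 weeks, IUGR at 2 weeks and control at 2 weeks. The labels call the libraries biological replicates but leave pooling and sex unstated, so p-values measure the spread between these libraries.

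In class I presentation, peptides cut by the proteasome in the cytosol are pumped into the endoplasmic reticulum by the transporter Tap1-Tap2 and loaded, with the help of tapasin (Tapbp), onto a heavy chain paired with beta-2 microglobulin (B2m). Interferon gamma replaces the catalytic proteasome subunits Psmb5, Psmb6 and Psmb7 with the immunoproteasome subunits Psmb8, Psmb9 and Psmb10, and Nlrc5 activates transcription of class I genes. In class II presentation, alpha and beta chains assemble on the invariant chain Cd74, receive peptides from endocytosed proteins with the help of the DM proteins, and depend on the transactivator Ciita. Nearly all nucleated cells carry class I, whereas class II is carried mainly by macrophages, dendritic cells and B cells, which in the pancreas include the resident leukocytes of the islet.

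Promoters of 7 of the genes described below are shown here, since class I and class II genes are known for shared promoter elements. They are RefSeq windows of 300 bases (250 before to 50 after the start of the gene, build GRCr8), read in the direction of the gene, and 39 of the 46 genes matched an entry by symbol. Capitals mark matches on either strand to any of 5 motifs, which are ATTGG (the core of the Y box, bound by NF-Y), TGACG (the core of the X2 box and of cyclic AMP response elements), TAGCAAC (a core of the X box of class II genes), a kappa B enhancer element known from class I genes (GGGG followed directly by ATTCCC) and an interferon response element (GAAA, any 2 bases, GAAA). The windows lie at chr3:129549080-129549379 (B2m, plus strand), chr20:4872621-4872920 (RT1-A2, plus strand), chr20:3265394-3265693 (RT1-CE16, minus strand), chr20:4668494-4668793 (Tap1, minus strand), chr20:4668750-4669049 (Psmb9, plus strand), chr20:4515165-4515464 (RT1-Da, plus strand) and chr20:4576807-4577106 (RT1-Ba, plus strand).
B2m: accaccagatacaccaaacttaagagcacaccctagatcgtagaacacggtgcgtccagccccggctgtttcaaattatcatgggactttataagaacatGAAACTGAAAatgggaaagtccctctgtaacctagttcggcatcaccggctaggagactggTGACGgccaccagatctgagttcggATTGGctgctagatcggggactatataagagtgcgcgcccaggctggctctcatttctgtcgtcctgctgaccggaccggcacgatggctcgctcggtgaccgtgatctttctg
RT1-A2: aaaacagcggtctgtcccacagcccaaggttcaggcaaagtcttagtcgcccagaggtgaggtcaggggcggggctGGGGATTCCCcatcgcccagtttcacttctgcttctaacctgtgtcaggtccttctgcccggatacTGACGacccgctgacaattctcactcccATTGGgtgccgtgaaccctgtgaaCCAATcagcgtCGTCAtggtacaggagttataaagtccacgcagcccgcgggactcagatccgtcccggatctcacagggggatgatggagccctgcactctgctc
RT1-CE16: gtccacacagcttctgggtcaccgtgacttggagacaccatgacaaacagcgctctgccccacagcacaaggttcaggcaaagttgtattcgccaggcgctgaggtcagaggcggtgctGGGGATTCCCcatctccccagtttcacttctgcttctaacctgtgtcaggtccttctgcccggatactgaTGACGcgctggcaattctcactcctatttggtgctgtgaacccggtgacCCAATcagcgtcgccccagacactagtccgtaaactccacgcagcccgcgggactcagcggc
Tap1: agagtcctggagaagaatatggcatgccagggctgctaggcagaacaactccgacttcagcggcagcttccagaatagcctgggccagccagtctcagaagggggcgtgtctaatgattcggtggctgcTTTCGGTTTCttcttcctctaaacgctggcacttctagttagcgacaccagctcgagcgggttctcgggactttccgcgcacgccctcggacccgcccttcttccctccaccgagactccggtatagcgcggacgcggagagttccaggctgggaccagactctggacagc
Psmb9: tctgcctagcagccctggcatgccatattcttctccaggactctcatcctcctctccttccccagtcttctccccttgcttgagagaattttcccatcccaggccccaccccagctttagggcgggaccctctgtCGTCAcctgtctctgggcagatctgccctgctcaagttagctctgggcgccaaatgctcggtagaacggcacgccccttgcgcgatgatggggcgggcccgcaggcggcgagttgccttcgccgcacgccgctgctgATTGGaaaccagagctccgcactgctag
RT1-Da: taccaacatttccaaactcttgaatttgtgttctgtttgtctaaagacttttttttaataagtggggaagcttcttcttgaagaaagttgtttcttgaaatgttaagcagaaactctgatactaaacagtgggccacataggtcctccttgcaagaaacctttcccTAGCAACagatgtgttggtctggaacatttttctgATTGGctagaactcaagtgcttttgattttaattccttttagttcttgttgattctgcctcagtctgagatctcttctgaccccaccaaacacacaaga
RT1-Ba: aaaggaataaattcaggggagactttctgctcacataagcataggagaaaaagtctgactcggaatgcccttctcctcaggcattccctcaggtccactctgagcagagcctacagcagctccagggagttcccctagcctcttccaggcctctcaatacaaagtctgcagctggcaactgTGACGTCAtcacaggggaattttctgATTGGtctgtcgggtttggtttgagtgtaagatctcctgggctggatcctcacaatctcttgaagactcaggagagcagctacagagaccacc

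The Y box core stood in the window of 28 of the 39 genes, including 9 of 9 class II genes, 3 of 7 assembly genes and 16 of 23 heavy chains, and in 37.5% of all 33469 windows of this length. The kappa B element was found in 5 of 23 heavy chain windows, in none of the other genes' windows and in 0.1135% of all windows. The interferon response element was found in 6 of 7 assembly genes, 3 of 23 heavy chains and 0 of 9 class II genes, and in 3.92% of all windows. TAGCAAC was found in 4 of 9 class II genes, 1 of 7 assembly genes and 1 of 23 heavy chains, and in 3.58% of all windows. TGACG was found in 9 of the 39 genes and in 21.2% of all windows. Matches of different motifs did not overlap in these genes, but the 2 TGACG matches of RT1-Ba, one on each strand, overlap each other, as do 2 matches of the interferon response element of Tapbp. Tap1 and Psmb9 lie head to head, and their windows share 44 bases. These matches describe the letters in the windows and say nothing of which factor was bound in these islets.

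The libraries held 30396759 to 64201627 counts each. Levels are given in CPM, counts scaled to a common library size with TMM factors, and the levels of different genes are not compared, since lengths are not used here. The factors of libraries 1 to 3 were 1.18, 1.18 and 1.16 in IUGR and 0.492, 1.07 and 0.440 in controls at 10 weeks. At 2 weeks they were 1.38, 1.40 and 1.36 in IUGR and 0.771, 1.15 and 1.15 in controls. Statements that levels overlap or do not overlap between groups rest on these factors. Acinar cells make digestive enzymes and surround the islets. The acinar gene list took 0.624% to 2.33% of counts in IUGR libraries at 10 weeks, 13.96% to 47.5% in controls at 10 weeks, 4.38% to 9.37% in IUGR libraries at 2 weeks and 21.7% to 42.3% in controls at 2 weeks. These shares do not overlap between IUGR and control at either age. The islet hormone genes Ins1, Ins2, Gcg, Sst, Ppy and Iapp summed to 187766 to 199036 CPM in IUGR libraries at 10 weeks, 99119 to 145205 CPM in controls at 10 weeks, 52738 to 68583 CPM in IUGR libraries at 2 weeks and 33900.4 to 63714 CPM in controls at 2 weeks. In RNA of whole islets, fewer cells of a type and less RNA per cell cannot be told apart. Reads of near-identical class I genes can be shared between symbols. RT1-CE2, RT1-CE3, RT1-CE7 and RT1-M4 had counts within 1.12 times of each other in each library, and within 1.28 times when RT1-A1 and RT1-A2 were added, so these 6 symbols are not independent of one another and the split between them is uncertain.

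The first comparison set IUGR against control islets at 10 weeks. Class I genes were lower in IUGR islets where they differed: 5 heavy chains (RT1-S3, RT1-T24-4, RT1-T24-3, RT1-CE4 and RT1-CE5) and the immunoproteasome subunits Psmb10 and Psmb9 fell, by 0.93 to 1.24 on the log2 scale, and no gene rose. None of the class II genes passed. The 7 genes that fell are 17.5% of the 40 tested, and 15.5% of all 20733 transcripts tested were called lower, so the share is near that of all transcripts. The median log2 fold change was -0.52 over the 40 genes tested and -0.01 over all transcripts (-0.82 for heavy chains, -0.61 for assembly genes and -0.26 for class II genes).

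RT1-S3, a nonclassical class I heavy chain, had 9.43, 14.8 and 11.4 CPM in IUGR libraries and 16.4, 33.6 and 31.6 CPM in control libraries at 10 weeks (log2 fold change -1.19 ± 0.25, adjusted p = 0.00794, where ± is the standard error and p is that of edgeR's quasi-likelihood test with Benjamini-Hochberg adjustment). RT1-T24-4, a heavy chain of the T24 group, had 44.9, 64.4 and 78.8 CPM in IUGR libraries and 92.7, 167 and 166 CPM in controls (log2 fold change -1.18 ± 0.25, adjusted p = 0.00817). For both genes every IUGR library lay below every control library, with control replicate 1 nearest to the IUGR values. RT1-T24-3 had 92.6, 113 and 105 CPM in IUGR libraries and 126, 306 and 226 CPM in controls (log2 fold change -1.08 ± 0.30, adjusted p = 0.0220), again without overlap.

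RT1-CE4 averaged 34.1 ± 3.71 CPM in IUGR libraries and 76.9 ± 42.2 CPM in controls (SD, n = 3 each; log2 fold change -1.17 ± 0.39, adjusted p = 0.0452). RT1-CE5 averaged 146 ± 16.7 CPM in IUGR libraries and 279 ± 118 CPM in controls (SD, n = 3 each; log2 fold change -0.93 ± 0.31, adjusted p = 0.0431). Apart from RT1-M3-1, the other heavy chains with a mean of at least 1 CPM kept the same sign without passing. RT1-CE16 was among them (-0.28 ± 1.97). Of all 22 heavy chains tested, 4 had a fold change above 0. The classical class I genes RT1-A2 and RT1-A1 had log2 fold changes of -0.84 ± 0.36 and -0.79 ± 0.38, and RT1-CE2, RT1-CE3, RT1-CE7 and RT1-M4 of -0.87 to -0.84. RT1-T24-1 had -0.84 ± 0.30 (adjusted p = 0.0558) and RT1-CE10 had -0.75 ± 0.29 (adjusted p = 0.0729). RT1-N3, RT1-N2 and RT1-M6-2 did not pass either, with log2 fold changes of -0.49, -0.64 and -0.25. RT1-M3-1, the rat counterpart of mouse H2-M3, which in the mouse presents N-formylated peptides, had 17.4, 15.6 and 12.8 CPM in IUGR libraries and 10.4, 15.5 and 12.5 CPM in controls, which overlap (log2 fold change 0.25 ± 0.17).

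Of the assembly genes Psmb10 had the smallest p. It had 9.21, 13.2 and 9.24 CPM in IUGR libraries and 23.6, 20.99 and 30.3 CPM in controls at 10 weeks (log2 fold change -1.24 ± 0.28, adjusted p = 0.00957), without overlap. Psmb9 had 5.23, 7.85 and 4.94 CPM in IUGR libraries and 6.56, 19.3 and 11.1 CPM in controls (log2 fold change -1.04 ± 0.34, adjusted p = 0.0422), with IUGR replicate 2 above control replicate 1. The third immunoproteasome subunit, Psmb8, did not pass (-0.57 ± 0.42, adjusted p = 0.337). Tap1 and Tap2 lay just outside the threshold (-0.83 ± 0.29, adjusted p = 0.0508 for Tap1 and -0.66 ± 0.24, adjusted p = 0.0608 for Tap2). B2m had 206, 286 and 270.2 CPM in IUGR libraries and 241, 462 and 386 CPM in controls, and tapasin (Tapbp) 29.7, 25.5 and 25.5 CPM in IUGR libraries and 26.5, 41.4 and 35.5 CPM in controls. Neither passed (-0.52 ± 0.25 for B2m and -0.36 ± 0.14 for Tapbp), nor did the class I transactivator Nlrc5 (-0.39 ± 0.44).

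**Figure D1:**
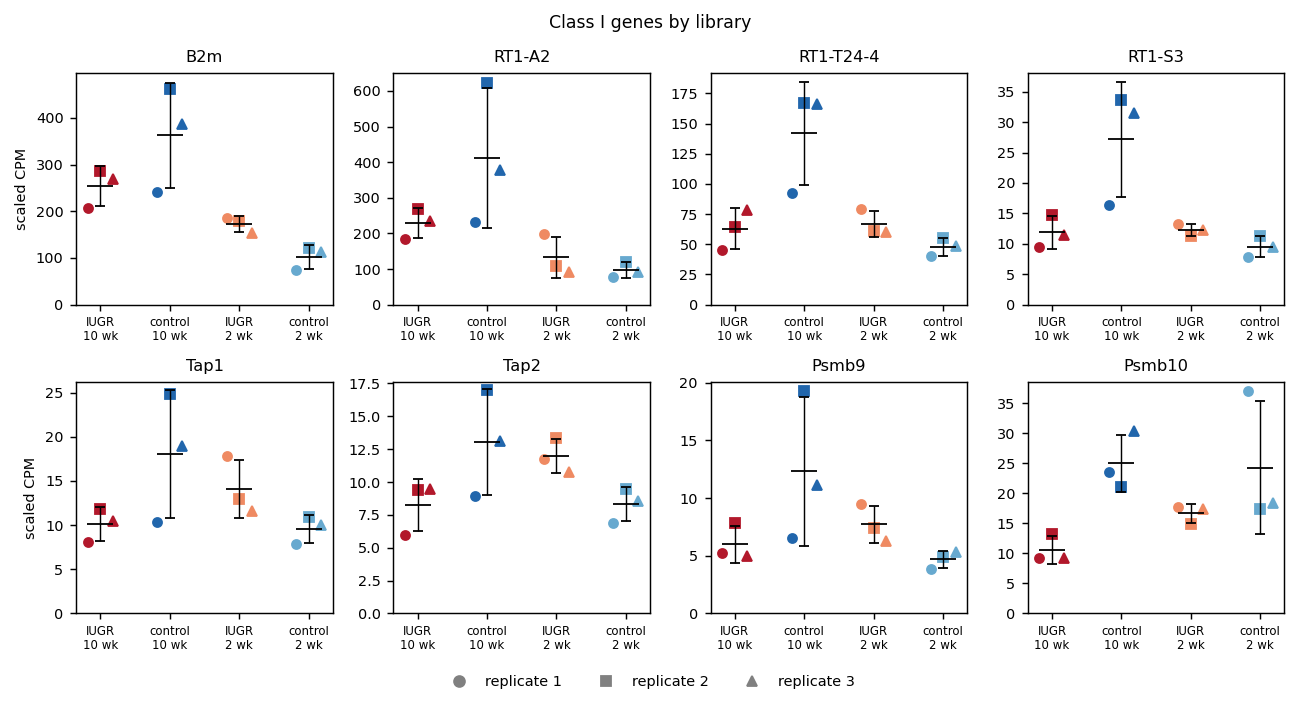
Level of 8 class I genes in each library (vertical axis, TMM-scaled CPM) by group (horizontal axis), with each point a library (circle, square and triangle for replicates 1 to 3) and the black dash and bar the mean ± SD of 3 libraries. For RT1-T24-4, RT1-S3 and Psmb10, the 3 IUGR libraries at 10 weeks lie below the 3 control libraries of that age.

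Of the 7 genes, Psmb10, RT1-S3 and RT1-T24-4 passed in each of the 12 fits that left out 1 library in turn. All of these fits used TMM scaling. RT1-T24-3 passed in 7 of 12 fits, RT1-CE5 in 4 of 12, Psmb9 in 3 of 12 and RT1-CE4 in 3 of 12. The count of genes called was 3 without IUGR replicate 1 or 3 or control replicate 2 or 3 at 10 weeks. It was 4 without IUGR replicate 2 at 10 weeks, or IUGR replicate 2 or control replicate 2 or 3 at 2 weeks, and 19 without control replicate 1 at 10 weeks. With the acinar level as a covariate 3 genes were called (RT1-T24-4, RT1-T24-1 and Tap2) and the median over the genes was -1.94; Psmb10 then had a log2 fold change of 0.09, whereas the other 6 genes kept a negative sign (-2.24 to -1.67). The acinar share moves with the groups, and its part in these differences was not tested beyond this fit.

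The proteasome was also read as ratios of counts within each library, which do not depend on scaling. Psmb10 counts were 20.9, 26.99 and 21.7% of those of Psmb7, the constitutive subunit that it replaces, in IUGR libraries at 10 weeks and 57.7, 54.5 and 76.3% in controls at 10 weeks. At 2 weeks they were 39.99, 34.6 and 40.6% in IUGR libraries and 96.9, 51.00 and 47.7% in controls. At both ages the 3 IUGR ratios lay below the 3 control ratios. Psmb9 over Psmb6 was 17.6, 23.4 and 15.97% in IUGR libraries and 21.6, 73.6 and 38.3% in controls at 10 weeks, against 27.1, 22.8 and 17.6% in IUGR libraries and 10.2, 17.7 and 17.04% in controls at 2 weeks. Here the groups overlapped at each age. Psmb8 over Psmb5 ran from 20.6% in control replicate 1 at 2 weeks to 112% in control replicate 2 at 10 weeks, and its groups overlapped as well. The 3 immunoproteasome subunits together were 26.6% ± 7.62 of the counts of the constitutive subunits in IUGR libraries at 10 weeks, 57.2% ± 18.7 in controls at 10 weeks, 34.2% ± 3.94 in IUGR libraries at 2 weeks and 37.8% ± 6.61 in controls at 2 weeks (SD, n = 3 each). Psmb5, Psmb6 and Psmb7 themselves passed in 0 of the 5 comparisons, with a median log2 fold change of -0.04 to 0.14.

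At 2 weeks, IUGR was set against control in the same way. None of the 40 genes passed by edgeR, while 3.88% of all transcripts did (1.66% higher and 2.21% lower); 2 genes, B2m and Tap2, had an unadjusted p under 0.05, and DESeq2 called 1 (B2m). The median log2 fold change was 0.40 over the genes tested and 0.05 over all transcripts, and 35 of the 40 had a fold change above 0. B2m had 185, 179 and 154 CPM in IUGR libraries and 73.3, 122 and 112 CPM in controls (log2 fold change 0.75 ± 0.25, adjusted p = 0.0901), and Tap2 had 11.8, 13.3 and 10.8 CPM in IUGR libraries and 6.90, 9.46 and 8.57 CPM in controls (log2 fold change 0.52 ± 0.23, adjusted p = 0.171). In both genes the 3 IUGR libraries lay above the 3 controls.

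Tap1 also had no overlap at 2 weeks (17.8, 12.96 and 11.6 CPM in IUGR libraries and 7.84, 10.9 and 10.04 CPM in controls), with an adjusted p of 0.215. The same was true of Psmb9 (9.44, 7.43 and 6.28 CPM in IUGR libraries and 3.83, 4.87 and 5.34 CPM in controls, adjusted p = 0.186) and of Psmb8 (12.5, 12.2 and 8.87 CPM in IUGR libraries and 5.78, 7.998 and 6.37 CPM in controls, adjusted p = 0.270). RT1-A2 had 198, 108 and 92.1 CPM in IUGR libraries and 77.8, 121 and 91.4 CPM in controls, which overlap (log2 fold change 0.46 ± 0.36). Psmb10 had 17.8, 14.9 and 17.3 CPM in IUGR libraries and 37.1, 17.4 and 18.4 CPM in controls, which overlap (-0.54 ± 0.27). Among heavy chains RT1-T24-4 had 79.2, 61.04 and 60.2 CPM in IUGR libraries and 40.2, 55.01 and 48.6 CPM in controls, without overlap (0.48 ± 0.25, adjusted p = 0.228), and RT1-N2 was the one gene of at least 1 CPM whose IUGR libraries all lay below the controls (4.28, 4.13 and 4.58 CPM in IUGR libraries and 12.9, 6.69 and 4.92 CPM in controls, adjusted p = 0.1802). The share of all transcripts without overlap was not counted at either age, so the genes without overlap cannot be set against it. With the acinar level as a covariate no transcript of the whole table passed at 2 weeks, and the median over the genes was -0.20.

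The difference between the IUGR effects at 10 and 2 weeks compared the IUGR effect between the 2 ages. It was negative and passed for 7 genes of class I presentation: RT1-T24-4, RT1-S3, RT1-T24-3, Psmb9, B2m, Tap2 and Tap1. These are 17.5% of the 40 genes tested, and 10.4% of all transcripts were called lower and 3.97% higher. The median of the difference was -1.18 over the genes and 0.00 over all transcripts (-1.23 for heavy chains, -1.26 for assembly genes and -0.90 for class II genes), and no class II gene passed. This comparison shares its libraries with the 2 before it.

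The difference was -1.66 ± 0.36, adjusted p = 0.0127 for RT1-T24-4, with an IUGR effect of -1.18 at 10 weeks and 0.48 at 2 weeks. It was -1.55 ± 0.36, adjusted p = 0.0171 for RT1-S3 (-1.19 at 10 weeks and 0.36 at 2 weeks) and -1.51 ± 0.42, adjusted p = 0.0355 for RT1-T24-3. These heavy chains were lower in IUGR islets at 10 weeks and had a positive fold change, which did not pass, at 2 weeks. Among the assembly genes the difference was -1.76 ± 0.48, adjusted p = 0.0334 for Psmb9, -1.27 ± 0.35, adjusted p = 0.0345 for B2m, -1.18 ± 0.33, adjusted p = 0.0390 for Tap2 and -1.39 ± 0.40, adjusted p = 0.0421 for Tap1. It did not pass for Psmb8 (-1.30 ± 0.60), Nlrc5 (-1.25 ± 0.64), Psmb10 (-0.70 ± 0.39) or Tapbp (-0.45 ± 0.20).

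RT1-T24-4 and RT1-S3 passed in each of the 12 fits that left out 1 library. B2m, Psmb9 and RT1-T24-3 passed in 3 of 12, Tap2 in 2 of 12 and Tap1 in 1 of 12. These fits too used TMM scaling. The count of genes called was 2 without IUGR replicate 1 or 3 or control replicate 2 or 3 at 10 weeks, or IUGR replicate 1 or 2 or control replicate 3 at 2 weeks. It was 3 without IUGR replicate 2 at 10 weeks or control replicate 1 at 2 weeks, and 17 without control replicate 1 at 10 weeks. With the acinar level as a covariate it was 18, among them these 7 genes.

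**Figure D2:**
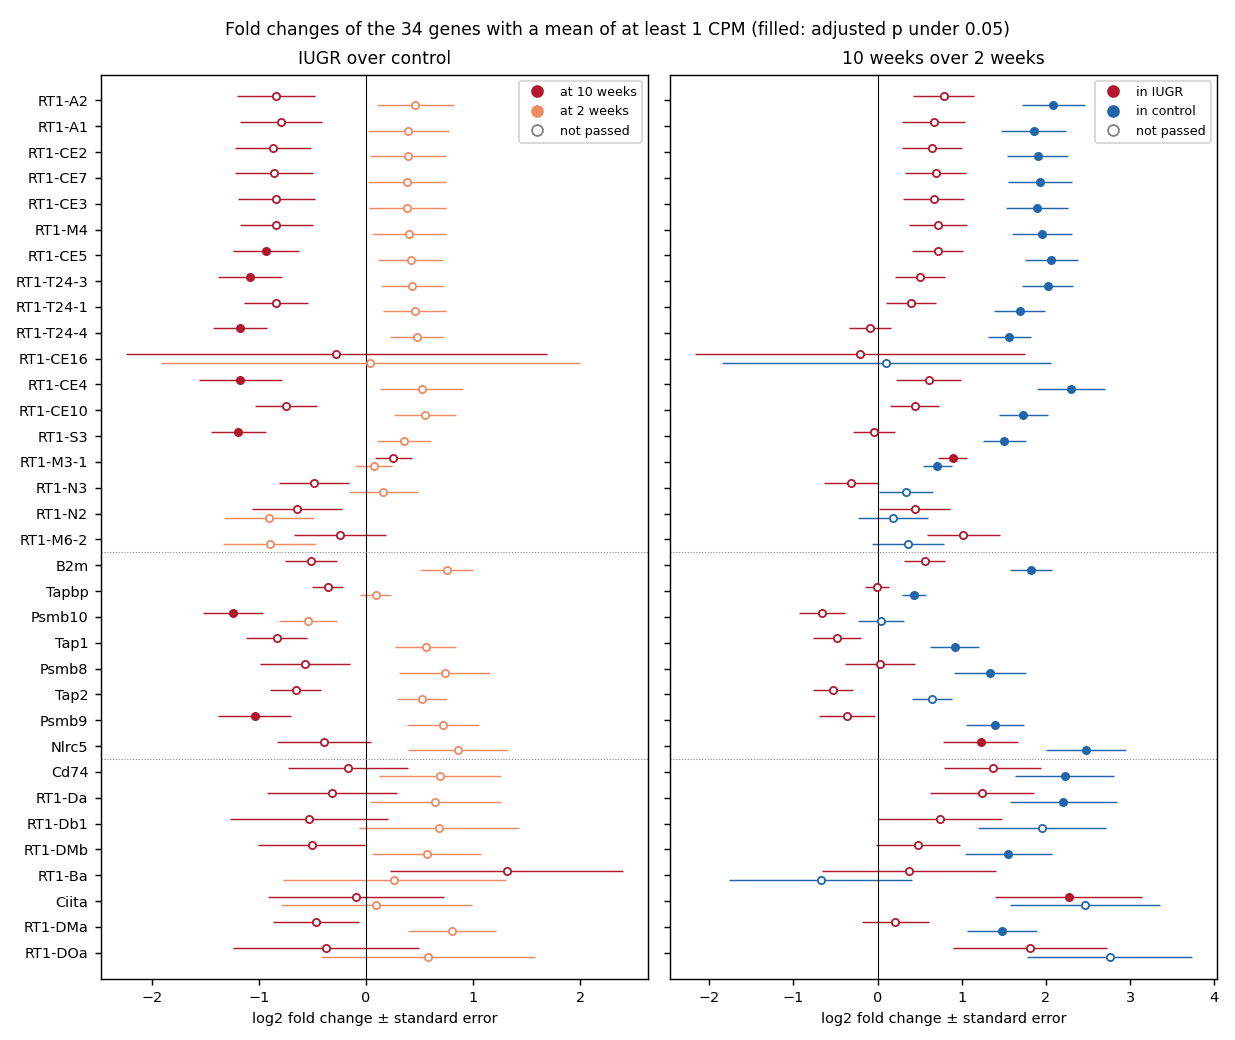
Log2 fold change ± standard error (horizontal axis) of the 34 genes with a mean of at least 1 CPM, for IUGR over control at each age (left) and for 10 over 2 weeks in each group (right). Filled points passed at an adjusted p under 0.05, and dotted lines part heavy chains, assembly genes and class II genes; on the right the control points of most class I genes lie further from 0 than the IUGR points.

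The ages were compared next, first within the IUGR group. Of the 40 genes 8 were higher at 10 than at 2 weeks and none was lower; the 8 are 20%, and 27.3% of all transcripts were called higher. The 8 comprise the heavy chain RT1-M3-1, the transactivators Nlrc5 and Ciita, and 5 genes with a mean under 1 CPM (RT1-S2, RT1-O1, RT1-M2, RT1-DOb and RT1-Ha, named after their values were seen, log2 fold changes of 1.47 to 2.74). The median was 0.62 over the genes and 0.00 over all transcripts (0.65 for heavy chains, -0.19 for assembly genes and 1.30 for class II genes).

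RT1-M3-1 had 17.4, 15.6 and 12.8 CPM in IUGR libraries at 10 weeks and 9.04, 8.58 and 7.08 CPM at 2 weeks (log2 fold change 0.89 ± 0.17, adjusted p = 0.00116), and it passed in each fit that left out 1 library. Nlrc5 had 3.12, 7.35 and 4.99 CPM at 10 weeks and 2.95, 2.20 and 1.45 CPM at 2 weeks (log2 fold change 1.22 ± 0.45, adjusted p = 0.0362). Ciita had 3.34, 8.42 and 3.56 CPM at 10 weeks and 1.13, 1.27 and 0.752 CPM at 2 weeks (log2 fold change 2.27 ± 0.87, adjusted p = 0.0446). For each of the 3 genes the ages did not overlap, and the highest Nlrc5 and Ciita values were in IUGR replicate 2 at 10 weeks. B2m (0.56 ± 0.25, adjusted p = 0.0726), RT1-A2 (0.79 ± 0.36, adjusted p = 0.0845) and Cd74 (1.37 ± 0.57, adjusted p = 0.0617) did not pass, nor did Psmb10 (-0.66 ± 0.28, adjusted p = 0.0608), Tap2 (-0.53 ± 0.24, adjusted p = 0.0758) and Tap1 (-0.48 ± 0.28, adjusted p = 0.172). The count of genes called was 1 without IUGR replicate 2 or 3 at 2 weeks (RT1-M3-1), 3 without IUGR replicate 2 and 5 without IUGR replicate 3 at 10 weeks, 13 without IUGR replicate 1 at 2 weeks, and 15 and 18 without control replicate 1 or 2 at 10 weeks. Nlrc5 passed in 8 of 12 fits that left out 1 library and Ciita in 6 of 12, and neither passed without IUGR replicate 2 at 10 weeks alone (adjusted p = 0.147 for Nlrc5 and 0.155 for Ciita). Without replicate 2 of both 10-week groups 7 were called, among them RT1-M3-1, Nlrc5 and Ciita. With the acinar covariate 4 were called (RT1-M3-1, RT1-M6-2, Tap1 and Tap2).

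In control islets most class I genes and 5 class II genes rose with age. Of the 40 genes 25 were higher at 10 than at 2 weeks, which is 62.5%, and none fell, whereas 17.2% of all transcripts were called higher (32.3% in either direction). They comprise 14 of 22 heavy chains, 6 of 8 assembly genes and 5 of 10 class II genes. The median log2 fold change was 1.71 over the genes and 0.00 over all transcripts (1.71 for heavy chains, 1.12 for assembly genes and 2.21 for class II genes). The 14 heavy chains include the 6 symbols whose counts are not independent of one another.

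B2m had 241, 462 and 386 CPM in control libraries at 10 weeks and 73.3, 122 and 112 CPM at 2 weeks (log2 fold change 1.82 ± 0.25, adjusted p = 0.000588). RT1-A2 had 233, 622 and 377 CPM at 10 weeks and 77.8, 121 and 91.4 CPM at 2 weeks (log2 fold change 2.09 ± 0.38, adjusted p = 0.00228), and RT1-A1 had a log2 fold change of 1.85 ± 0.39. For B2m and RT1-A2 every 10-week library lay above every 2-week library after TMM scaling. RT1-CE4 had 38.8, 122 and 69.7 CPM at 10 weeks and 16.9, 17.7 and 12.5 CPM at 2 weeks (log2 fold change 2.30 ± 0.41, adjusted p = 0.00206), again without overlap. As shares of all counts, without TMM factors, these 3 genes were lower in 10-week replicate 1 than in 2-week replicate 2. For B2m these were 7614 of 64201627 counts and 6255 of 44557766 counts. The separation of the ages thus depends on the scaling. The other heavy chains that rose were RT1-CE2, RT1-CE3, RT1-CE7, RT1-M4, RT1-CE5, RT1-T24-3, RT1-T24-1, RT1-T24-4, RT1-CE10, RT1-S3 and RT1-M3-1, with log2 fold changes between 0.71 for RT1-M3-1 and 2.06 for RT1-CE5. Each of the 14 heavy chains and B2m passed in all 12 fits that left out 1 library. RT1-N3 (0.34 ± 0.32), RT1-N2 (0.18 ± 0.42) and RT1-M6-2 (0.37 ± 0.43) did not pass.

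Of the assembly genes, Nlrc5 had 3.30, 11.2 and 5.70 CPM in controls at 10 weeks and 0.887, 1.53 and 1.20 CPM at 2 weeks (log2 fold change 2.48 ± 0.48, adjusted p = 0.00317). Psmb9 (1.40 ± 0.34, adjusted p = 0.0107), Psmb8 (1.33 ± 0.43, adjusted p = 0.0350), Tap1 (0.91 ± 0.29, adjusted p = 0.0319) and Tapbp (0.44 ± 0.14, adjusted p = 0.0389) rose as well, Tap2 lay just outside the threshold (0.65 ± 0.24, adjusted p = 0.0565) and Psmb10 did not pass (0.04 ± 0.27). Nlrc5 and Psmb9 passed in 12 of 12 fits that left out 1 library, Psmb8 in 8 of 12, Tap1 in 7 of 12 and Tapbp in 5 of 12. Without replicate 2 of both 10-week groups, an alternative chosen after seeing the data, 18 of the genes were called, and Tapbp, Tap1, Psmb8, RT1-Da, RT1-DMa, RT1-DMb and RT1-DOb were not among them. The acinar share overlapped between the ages in controls.

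The class II genes that rose in controls were Cd74, the DR-like alpha chain RT1-Da, both peptide exchange genes RT1-DMa and RT1-DMb, and RT1-DOb, a DO chain with a mean under 1 CPM. Cd74 had 70.8, 292 and 160.1 CPM in control libraries at 10 weeks and 20.3, 70.2 and 21.2 CPM at 2 weeks (log2 fold change 2.22 ± 0.59, adjusted p = 0.0155), and RT1-Da had 26.97, 122 and 58.5 CPM at 10 weeks and 6.35, 29.96 and 8.45 CPM at 2 weeks (log2 fold change 2.21 ± 0.64, adjusted p = 0.0226). Control replicate 2 was the highest library at each age, and for RT1-Da 10-week replicate 1 lay below 2-week replicate 2. RT1-DMa (1.48 ± 0.42, adjusted p = 0.0198) and RT1-DMb (1.55 ± 0.51, adjusted p = 0.0391) had smaller fold changes. RT1-Db1 (1.95 ± 0.77, adjusted p = 0.0718), RT1-DOa (2.76 ± 0.98, adjusted p = 0.0515) and Ciita (2.46 ± 0.89, adjusted p = 0.0551) did not pass, nor did the DQ-like alpha chain RT1-Ba (-0.68 ± 1.08, adjusted p = 0.654). Cd74 passed in 10 of 12 fits that left out 1 library, failing without control replicate 1 or 3 at 2 weeks. RT1-Da and RT1-DMa passed in 9 of 12, failing without either of these or without control replicate 2 at 10 weeks, and RT1-DMb passed in 3 of 12 and RT1-DOb in 4 of 12.

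Class II levels varied widely between the libraries of a group. Summed over the 11 genes they were 182, 355 and 206 CPM in IUGR libraries 1 to 3 at 10 weeks and 114, 496 and 254 CPM in controls at 10 weeks. They were 125, 123 and 68.1 CPM in IUGR libraries and 32.5, 133 and 36.3 CPM in controls at 2 weeks. Replicate 2 was the highest of its group in 3 of the 4 groups, and in IUGR at 2 weeks replicates 1 and 2 were close to each other. Cd74 had 108, 224 and 133 CPM in IUGR libraries at 10 weeks and 63.6, 75.4 and 41.2 CPM at 2 weeks, and RT1-Da 45.1, 76.6 and 44.5 CPM and 28.6, 26.7 and 15.1 CPM at those ages. Both ages of the IUGR group were thus without overlap for these genes although the test was not passed. Neither gene separated IUGR from control at either age. The IUGR effect at 10 weeks and at 2 weeks was -0.17 ± 0.56 and 0.69 ± 0.57 for Cd74, -0.32 ± 0.61 and 0.65 ± 0.62 for RT1-Da, -0.53 ± 0.73 and 0.68 ± 0.75 for the DR-like beta chain RT1-Db1, and -0.09 ± 0.82 and 0.10 ± 0.89 for Ciita. It was -0.47 ± 0.40 and 0.80 ± 0.41 for RT1-DMa, -0.51 ± 0.50 and 0.56 ± 0.51 for RT1-DMb, and -0.37 and 0.57 for RT1-DOa, whose product restrains DM. None of these passed.

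Markers of leukocytes moved with these libraries. The B cell list (6 of 6 tested) summed to 15.2, 101 and 28.4 CPM in IUGR libraries at 10 weeks, 2.88, 119 and 3.29 CPM in controls at 10 weeks, 3.56, 4.07 and 3.74 CPM in IUGR libraries at 2 weeks and 1.20, 10.95 and 1.71 CPM in controls at 2 weeks. Replicate 2 of both 10-week groups stood far above the other libraries. These were also the libraries with the highest Ciita (3.34, 8.42 and 3.56 CPM in IUGR libraries and 1.20, 12.6 and 2.41 CPM in controls at 10 weeks) and the highest DO alpha chain RT1-DOa, a gene used chiefly by B cells (1.17, 2.57 and 0.840 CPM in IUGR libraries and 0.380, 4.56 and 0.876 CPM in controls at 10 weeks).

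The T cell list (7 of 7 tested) summed to 11.4, 36.7 and 13.5 CPM in IUGR libraries at 10 weeks, 8.65, 36.6 and 16.3 CPM in controls at 10 weeks, 7.82 to 11.5 CPM in IUGR libraries at 2 weeks and 3.32 to 9.09 CPM in controls at 2 weeks, where Cd2 and Cd3e were at 0 in replicate 1. The pan leukocyte list (Ptprc, Cd53 and Coro1a) summed to 44.2, 169.7 and 52.96 CPM, 21.6, 177 and 42.6 CPM, 25.6 to 33.2 CPM and 8.56 to 33.05 CPM in the same order of groups. Both lists were highest in replicate 2 of each 10-week group, as was the class II sum. The macrophage and myeloid list (16 of 18 found and tested) summed to 72.6, 126 and 95.5 CPM in IUGR libraries at 10 weeks, 85.9, 206 and 214 CPM in controls at 10 weeks, 151, 135 and 106 CPM in IUGR libraries at 2 weeks and 53.8, 109.8 and 82.5 CPM in controls at 2 weeks. It did not follow replicate 2 in the same way, since control replicate 3 was as high as replicate 2 at 10 weeks. The dendritic cell list (7 of 7 tested) summed to 14.7, 20.8 and 14.5 CPM in IUGR libraries and 11.7, 28.3 and 19.4 CPM in controls at 10 weeks. At 2 weeks it summed to 17.3 to 21.5 CPM in IUGR libraries and 11.6 to 16.5 CPM in controls. This list too was highest in replicate 2 of each 10-week group. In controls at 10 weeks the class II sum was 114 CPM in replicate 1 and 254 CPM in replicate 3. The myeloid, dendritic cell, T cell and pan leukocyte lists were also higher in replicate 3 than in replicate 1. The B cell list stood at 2.88 and 3.29 CPM in these libraries. The part of these cell types in the class II levels was not tested. Without replicate 2 of both 10-week groups, Cd74 still passed with age in controls (log2 fold change 1.62, adjusted p = 0.0439), while RT1-Da had 1.503 (adjusted p = 0.0758).

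**Figure D3:**
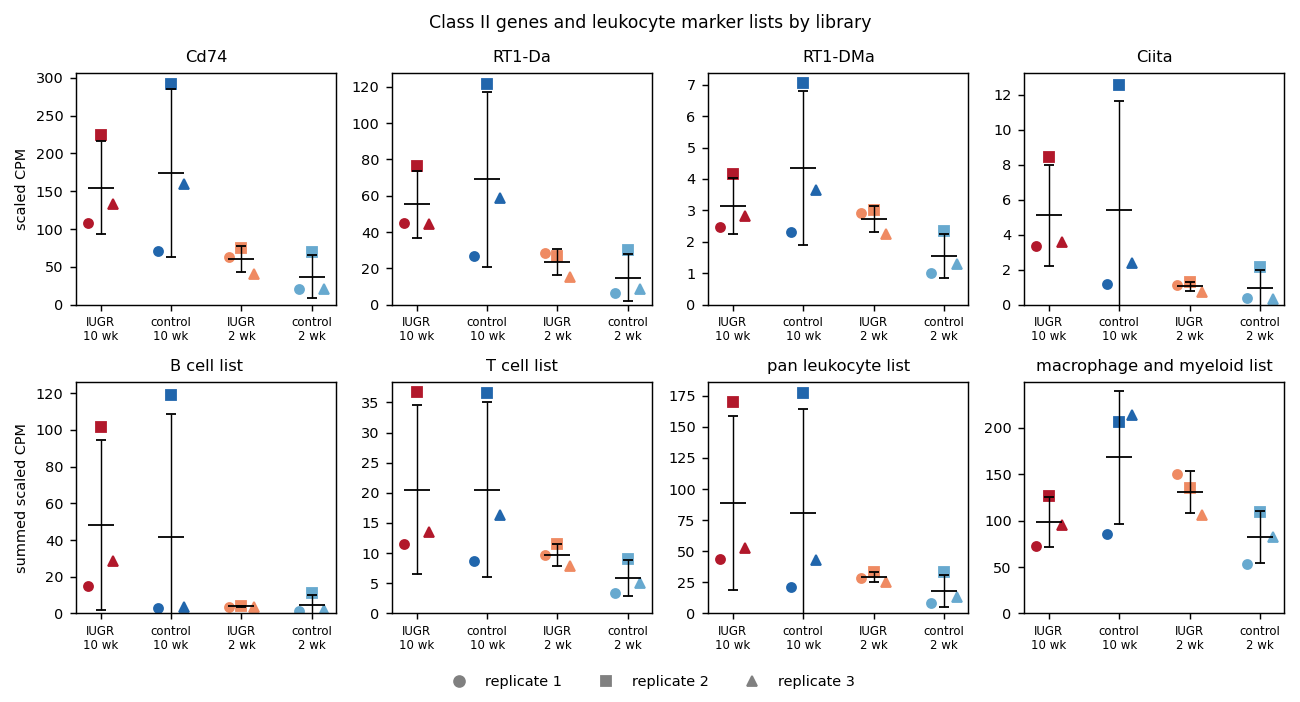
Level of 4 class II genes (top row, TMM-scaled CPM) and summed level of 4 leukocyte marker lists (bottom row, TMM-scaled CPM) in each library by group, with the black dash and bar the mean ± SD of 3 libraries. Replicate 2 of each 10-week group (squares) is the highest library of that group for Cd74, RT1-Da, RT1-DMa, Ciita and the B cell, T cell and pan leukocyte lists.

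Cd74 counts relative to the summed counts of the myeloid list were 148, 177 and 139% in IUGR libraries and 82.4, 142 and 74.9% in controls at 10 weeks, against 42.2, 55.98 and 38.9% in IUGR libraries and 37.8, 63.9 and 25.7% in controls at 2 weeks. Each 10-week library had a higher ratio than each 2-week library. B2m counts relative to the sum of the heavy chains, in which shared reads can be counted more than once, were 13.2, 15.1 and 15.9% in IUGR libraries and 13.3, 9.99 and 13.2% in controls at 10 weeks. At 2 weeks they were 10.8, 19.5 and 19.6% in IUGR libraries and 10.7, 11.4 and 13.1% in controls, so the groups overlapped at both ages. Summed over heavy chains and assembly genes, class I levels were 1832, 2275 and 2039.9 CPM in IUGR libraries and 2148, 5252 and 3445 CPM in controls at 10 weeks, and 1996, 1184 and 1023 CPM in IUGR libraries and 843, 1276 and 1043 CPM in controls at 2 weeks. Control replicate 2 at 10 weeks was the highest of the 12 libraries, and at 2 weeks IUGR replicate 1 was the highest.

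The heavy chain RT1-CE16 differed widely between libraries within every group, and the class II chain RT1-Ba did so within both 2-week groups. RT1-CE16, a heavy chain of the CE group, had 108, 1.64 and 1.41 CPM in IUGR libraries 1 to 3 at 10 weeks, 3.61, 127 and 3.61 CPM in controls at 10 weeks, 111, 16.1 and 1.69 CPM in IUGR libraries at 2 weeks and 0.315, 64.9 and 59.7 CPM in controls at 2 weeks. It was thus near 0 in some libraries and abundant in others of each group, and its log2 fold changes had standard errors of 1.96 to 2.77. In counts these levels are 3892, 66 and 57 in IUGR libraries at 10 weeks, 114, 5392 and 99 in controls at 10 weeks, 7810, 1039 and 101 in IUGR libraries at 2 weeks and 11, 3318 and 3044 in controls at 2 weeks. All 3 RT1-CE16 transcripts of the table showed the same libraries high and low. Relative to RT1-CE3, the RT1-CE16 count ranged from 0.453% in control replicate 1 to 68.3% in control replicate 3 at 2 weeks, a 151-fold range. RT1-A2 over RT1-CE3, by contrast, ranged over 1.22-fold and RT1-CE4 over RT1-CE3 over 1.73-fold in the 12 libraries.

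RT1-Ba, whose promoter is shown above beside that of RT1-Da, had 7.32, 6.82 and 3.56 CPM in IUGR libraries and 1.20, 2.84 and 3.07 CPM in controls at 10 weeks, and 10.7, 2.23 and 0.701 CPM in IUGR libraries and 0.401, 9.80 and 1.06 CPM in controls at 2 weeks. Relative to RT1-Da it stood at 16.2, 8.91 and 8.004% in IUGR libraries at 10 weeks, 4.47, 2.34 and 5.24% in controls at 10 weeks, 37.4, 8.38 and 4.64% in IUGR libraries at 2 weeks and 6.31, 32.7 and 12.5% in controls at 2 weeks, a 16.0-fold range. At 10 weeks each IUGR library lay above each control library in level and in ratio, although the test was not passed (log2 fold change 1.31 ± 1.09, adjusted p = 0.394), and at 2 weeks the groups overlapped. Other class II genes kept closer to RT1-Da, with a range of 1.44-fold for Cd74, 2.15-fold for RT1-Db1 and 2.74-fold for RT1-DMb. RT1-DMb over RT1-Da was 9.53% to 13.0% in the 6 libraries of 10 weeks and 15.7% to 26.1% in the 6 libraries of 2 weeks, without overlap. RT1-T18, a heavy chain that was not tested, had 137 counts in IUGR replicate 2 and 62 in control replicate 3 at 10 weeks and 5 or fewer in each of the other libraries. It was singled out after its values were seen.

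**Figure D4:**
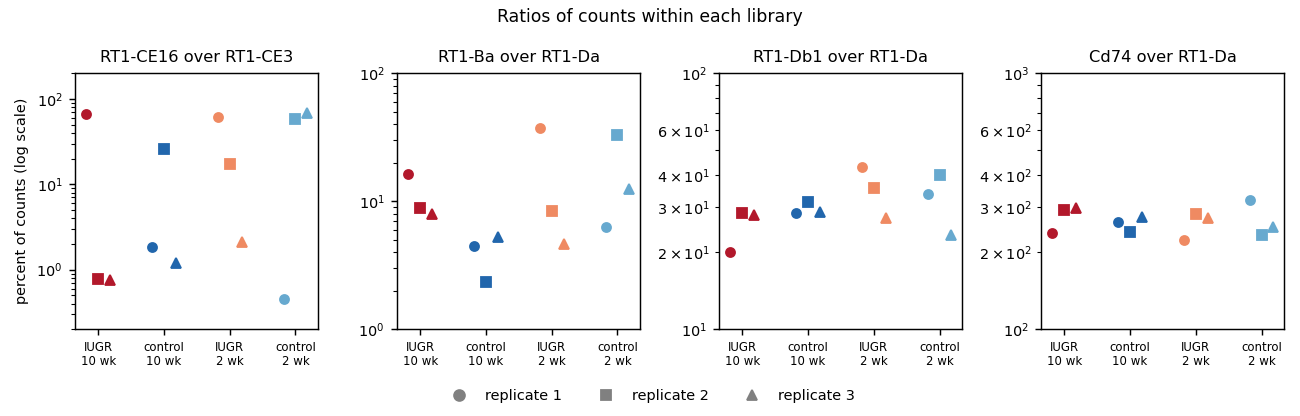
Ratio of counts within each library, in percent on a log axis, by group, with each point a library. RT1-CE16 over RT1-CE3 and RT1-Ba over RT1-Da spread 151-fold and 16.0-fold over the 12 libraries, RT1-Db1 over RT1-Da and Cd74 over RT1-Da 2.15-fold and 1.44-fold.

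The other genes of both pathways were read from lists. For the counts that follow, the shares of all transcripts called higher and lower were 12.4% and 15.5% for IUGR at 10 weeks, 3.97% and 10.4% for the difference between the IUGR effects, 27.3% and 29.2% with age in IUGR islets, and 17.2% and 15.1% with age in controls. Of 14 further class I pathway genes, 2 were higher and 2 lower in IUGR islets at 10 weeks. The chaperones Hspa5 (0.77 ± 0.20) and Calr (0.62 ± 0.15), which fold secreted proteins as well as class I chains, rose, and the class I-like genes Fcgrt, the neonatal Fc receptor (-1.31 ± 0.16), and Cd1d1, which presents lipids (-1.03 ± 0.25), fell. The list's median was 0.12. With age 8 rose and 2 fell in IUGR islets (median 0.57), and 6 rose and 1 fell in controls (median 0.28). Pdia3, which with Calr belongs to the loading complex of class I, rose in both groups (1.19 in IUGR islets and 1.01 in controls), as did Calr (1.09 in IUGR islets and 0.66 in controls), and Fcgrt fell in both (-2.29 in IUGR islets and -0.90 in controls). None passed at 2 weeks, and Fcgrt passed in the difference between the IUGR effects (-1.38 ± 0.23, adjusted p = 0.00494).

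Of 13 further class II pathway genes, 0 rose and 2 fell in IUGR islets at 10 weeks, the lysosomal proteases Ctsl (-1.32 ± 0.19) and Ctsd (-0.48 ± 0.15), a share near that of all transcripts called lower. The list's median was -0.13. With age 4 rose and 1 fell in IUGR islets (median 0.35) and 3 rose and 1 fell in controls (median 0.19). Those that rose in controls were Ctss, the protease that trims the invariant chain (2.05 ± 0.41), and the costimulatory genes Cd86 (1.85 ± 0.63) and Cd80 (1.83 ± 0.56), and the one that fell was Rfxap, a part of the X box binding complex (-0.35 ± 0.10). Rfx5 (0.39 ± 0.10) and Rfxank (0.35 ± 0.11), of the same complex, and the lysosomal protease Lgmn (0.76 ± 0.22) were among those that rose in IUGR islets, and Ctsl fell (-1.02 ± 0.19). None passed at 2 weeks, and Ctsl passed in the difference between the IUGR effects (-1.21 ± 0.27, adjusted p = 0.0151).

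Of 11 tested interferon gamma signalling genes, 0 rose and 2 fell in IUGR islets at 10 weeks, the kinase Jak1 (-0.76 ± 0.15) and the receptor chain Ifngr1 (-0.64 ± 0.13), again a share near that of all transcripts. In the difference between the IUGR effects Irf1, a transcription factor for class I and immunoproteasome genes, passed (-1.97 ± 0.58, adjusted p = 0.0434), as did Ifngr1 (-0.82 ± 0.18, adjusted p = 0.0129). The list's median at 10 weeks was -0.34. With age 1 rose and 4 fell in IUGR islets (median -0.35), and Irf1 (-2.54 ± 0.43), Jak1 (-0.84 ± 0.15) and Ifngr1 (-0.55 ± 0.13) were among those that fell, against 29.2% of all transcripts called lower. In controls 3 rose and none fell (median 0.17), among them Stat2 (0.53 ± 0.16) and Irf8 (1.47 ± 0.49). None passed at 2 weeks.

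Cell type lists moved with the same comparisons. Of 16 myeloid genes, 0 rose and 4 fell in IUGR islets at 10 weeks (Mrc1, Emr1, Cd14 and Cd163, log2 fold changes of -1.89 to -0.93, list median -0.80), and 9 rose with age in controls (list median 1.10), led by Cx3cr1 (1.13 ± 0.25) and the complement genes C1qb, C1qc and C1qa (1.51 to 1.55). In IUGR islets 4 of the 16 myeloid genes fell with age, near the 29.2% of all transcripts called lower, and none rose, and 6 passed with a negative difference between the IUGR effects. Of 7 dendritic cell genes 3 rose with age in controls, Itgax (2.45 ± 0.38), Xcr1 (2.19 ± 0.51) and Clec9a (1.24 ± 0.32), and in IUGR islets 2 rose and 2 fell. Of the 6 B cell genes 1 rose with age in IUGR islets and 0 in controls. Of the 7 T cell genes 2 rose with age in controls, and of the 3 pan leukocyte genes 2 did, with none in IUGR islets. None of these leukocyte lists had a gene that passed for IUGR at 2 weeks, and those of dendritic cells, B cells, T cells and all leukocytes had none at 10 weeks.

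Endothelial cells, which carry class I, had 7 of 9 genes lower in IUGR islets at 10 weeks, 0 of 9 at 2 weeks and 8 of 9 with a negative difference between the IUGR effects, and 8 of 9 fell with age in IUGR islets while 1 rose in controls. All 6 fibroblast genes fell in IUGR islets at 10 weeks and with age in both groups, and had a negative difference between the IUGR effects, with 0 of 6 at 2 weeks. The endothelial list summed to 347 to 462 CPM in IUGR libraries and 541 to 933 CPM in controls at 10 weeks, and the fibroblast list to 282 to 354 CPM in IUGR libraries and 743 to 1592 CPM in controls at 10 weeks, without overlap in either. Of 30 acinar genes tested 29 were lower in IUGR islets at 10 weeks and 4 at 2 weeks, 8 had a negative difference, 17 fell with age in IUGR islets and 6 rose with age in controls. Among the 6 islet hormone genes Ppy rose in IUGR islets at both ages (1.48 at 10 weeks and 1.32 at 2 weeks), and with age 3 rose and 1 fell in each group. The part of these cell types in the class I differences was not tested.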

How the data were processed

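The authors deposited unnormalized read counts, 1 row per Ensembl transcript, for 12 islet libraries (TruSeq Stranded Total RNA, Ribo-Zero Gold, RNA integrity above 7, per the labels). TopHat2 2.0.9, bedtools and the builds rn5 and mm9 appear without roles in the submitters' processing notes; the counting rule, strand setting and annotation were not given in the sources used here. Libraries were grouped by the labels. Genes and lists were chosen with earlier results of these data known. Genes with a mean of at least 1 CPM are named with values, the other 12 by count and range (means of 0.00531 to 0.742 CPM), and of each further list up to 4 called genes with the smallest p; some genes of these lists are not reported here. Counts were filtered (filterByExpr), TMM scaled and tested in 1 fit of the 4 groups with edgeR 4.0.16 (R 4.3.3, limma 3.58.1; robust quasi-likelihood F test, two-sided, Benjamini-Hochberg adjustment over 20733 transcripts, threshold 0.05). Standard errors were taken as |log2 fold change| divided by the root of F. The steps were tested on simulated data. Alternatives were DESeq2 1.42.0, RLE scaling, no filter, a replicate block, an acinar covariate, the 6 libraries of a comparison, 1 transcript per symbol, the 20 most abundant transcripts and acinar genes left out, and libraries left out.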

Additional observations from a re-analysis of the deposited data

Results flagged for a closer look

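For 7 genes the effect of IUGR differed between the ages by a test of the difference itself (edgeR's interaction contrast, adjusted over all transcripts). These are 17.5% of the 40 genes tested, and 10.4% of all transcripts were called lower. RT1-T24-4 and RT1-S3 passed in each of the 12 fits that left out 1 library. The others passed in only 1 to 3 of these fits. All of the fits used TMM scaling, so they do not show how the calls depend on it. As shares of all counts, without TMM factors, RT1-T24-4 and RT1-S3 were lower in control replicate 1 than in every IUGR library at 10 weeks. The IUGR effect at 10 weeks minus that at 2 weeks was -1.66 on the log2 scale for RT1-T24-4, -1.55 for RT1-S3 and -1.51 for RT1-T24-3 among the heavy chains. Among the assembly genes it was -1.76 for Psmb9, -1.39 for Tap1, -1.27 for B2m and -1.18 for Tap2. RT1-S3, RT1-T24-4 and RT1-T24-3 were past the threshold at 10 weeks on their own, as was Psmb9, whereas B2m, Tap1 and Tap2 were past it at neither age alone.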

How the results depend on the processing

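Counts below are genes of antigen presentation called among those tested, then transcripts called over the whole table, each against the reported fit (IUGR at 10 weeks 7 genes and 5776 transcripts, at 2 weeks 0 and 804, the difference 7 and 2973, 10 against 2 weeks in IUGR 8, in controls 25 and 6693). DESeq2 called 13 genes for IUGR at 10 weeks, 1 gene and 3166 transcripts at 2 weeks, 14 for the difference and 13 with age in IUGR. Without the filter 4 genes were called for IUGR at 10 weeks and 149 transcripts at 2 weeks. With the acinar covariate 3 genes and 1624 transcripts were called for IUGR at 10 weeks, 0 transcripts at 2 weeks, 18 genes and 4556 transcripts for the difference and 4 genes with age in IUGR. With only the 6 libraries of a comparison 3 genes and 3472 transcripts were called at 10 weeks, 0 transcripts at 2 weeks, 14 genes with age in IUGR and 3448 transcripts with age in controls. Without both 10-week controls of high acinar share the values were 16 genes at 10 weeks, 1 gene and 1807 transcripts at 2 weeks, 21 genes for the difference, 14 genes with age in IUGR and 3690 transcripts with age in controls. Leaving out a 2-week control of high acinar share as well, chosen after seeing the data, gave 19, 16 and 16 genes for IUGR at 10 weeks, the difference and age in IUGR, and 3625 transcripts with age in controls. Leaving out replicate 2 of both 10-week groups, also chosen after seeing the data, gave 2 genes (Psmb10 and RT1-S3) and 2902 transcripts at 10 weeks, 1503 transcripts at 2 weeks, and 2 genes (RT1-S3 and Psmb9) and 1925 transcripts for the difference.

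Leaving out 1 library at a time gave 3 to 19 genes and 2971 to 7021 transcripts at 10 weeks, 0 genes and 0 to 2350 transcripts at 2 weeks, 2 to 17 genes and 1759 to 4983 transcripts for the difference, 1 to 18 genes with age in IUGR and 17 to 29 with age in controls. With age in controls each alternative called at least 17 genes. Every fit scaled the libraries by TMM, RLE or DESeq2, so none gives this count without scaling. RLE scaling, the most abundant transcripts left out and 1 transcript per symbol kept each count of genes within 1.5 times.

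With the replicate number as a block (replicate block), 7 genes were called at 10 weeks, 1 gene and 1223 transcripts at 2 weeks, 8 for the difference, 13 with age in IUGR and 29 with age in controls. Samples of the same number correlated over 0.1 in every pair of no comparison (-0.14 to 0.48). Between the ages in controls the correlation was 0.39, 0.48 and 0.00 for replicates 1 to 3. Between IUGR and control at 10 weeks it was 0.20, 0.22 and -0.09. These values cannot tell whether libraries of the same number share more than the number, which was not tested further.

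Directions were followed for the genes that passed in a comparison and, in every comparison, for B2m, RT1-A2, Nlrc5, Cd74, RT1-Da, Ciita and Psmb10. The signs of the other genes that did not pass were not followed. Among those followed, directions that turned were those of values that had not passed, apart from Psmb10 at 10 weeks (0.092 with the acinar covariate). With that covariate the IUGR effect at 2 weeks was -1.61 for Ciita, -0.22 for Cd74, -0.0038 for Nlrc5, 0.19 for Psmb10, -0.42 for RT1-Da and -0.27 for RT1-A2, and Psmb10 with age in controls was -0.067. With the block Ciita at 10 weeks was 0.32. Without the 3 libraries of high acinar share Ciita at 2 weeks was -0.23, and without the 2 of 10 weeks Psmb10 with age in controls was -0.20. Without both 10-week replicates 2 the IUGR effect at 10 weeks was 0.98 for Ciita, 0.11 for Cd74 and 0.11 for RT1-Da, and the difference for Ciita was 0.94. Leaving out 1 library gave -0.31 to 1.54 for Ciita at 2 weeks, -0.66 to 1.53 for Ciita, -0.53 to 0.45 for Cd74, -0.73 to 0.23 for Nlrc5 and -0.67 to 0.40 for RT1-Da at 10 weeks, -1.63 to 1.49 for the difference of Ciita, and -0.15 to 0.48 for Psmb10 with age in controls. The cause was not tested.

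Mean class I sums without TMM scaling were 2402 CPM in IUGR at 10 weeks and 1933 CPM in IUGR at 2 weeks. Without this scaling the class I sums of control replicates 1 and 3 at 10 weeks lay below those of each IUGR library of that age. The control mean at 10 weeks stayed above the IUGR mean only through control replicate 2. Control replicate 1 at 10 weeks then also lay below control replicates 2 and 3 at 2 weeks. The lower class I levels in IUGR islets at 10 weeks, and the separation of the ages in controls, thus depend on the scaling in these libraries. Without the most abundant transcripts the mean class I sums were 3416 and 6021 CPM in IUGR and control at 10 weeks and 2347 and 1737 CPM in IUGR and control at 2 weeks. Over all transcripts of each symbol they were 3146, 5564, 2118 and 1611 CPM in the same order. Class II means in IUGR were 146 CPM at 2 weeks without TMM scaling, 413 CPM at 10 weeks and 176 CPM at 2 weeks without the most abundant transcripts, and 416 CPM at 10 weeks and 173 CPM at 2 weeks over all transcripts. Over all transcripts Cd74 stood at 268% and 182% of the myeloid list in IUGR and control at 10 weeks and 83.7% and 76.4% in IUGR and control at 2 weeks, and B2m at 9.04% and 7.56%, then 10.5% and 7.22%, of the heavy chains. With 3 libraries a group, the standard errors of RT1-CE16 (1.96 to 2.77) were larger in size than the log2 fold changes of the antigen presentation genes that passed in the IUGR comparisons.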

Other observations

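The 12 genes with a mean under 1 CPM had means of 0.00531 to 0.742 CPM, so their fold changes rest on few counts. RT1-Db2, a class II beta chain that was not tested, had 4, 12 and 2 counts in IUGR libraries and 0, 16 and 0 counts in controls at 10 weeks, and 0, 5 and 1 counts in IUGR libraries and 0, 7 and 0 counts in controls at 2 weeks. Its counts were highest in replicate 2 of each group, as were the class II sums in 3 of the 4 groups. It was singled out after its values were seen.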
